A study of Mus musculus with 8 samples.

Results

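The comparison described here set lung tumour nodules of mice given an anti-PD-1 antibody alone against nodules of mice given vehicle. Its members were the count columns whose labels give the treatment as anti-PD1 or Vehicle, 2 libraries a side, which is 4 of the 8 libraries of the study. All 4 came from 1 engineered mouse model of lung tumours, in which Trp53 is altered, on a mixed strain background, and the libraries of a side differ from the other side by label only in the antibody. The remaining 4 libraries are from mice of the same model given JQ1, an inhibitor of BET bromodomains, without or with the antibody. RNA was captured with probes against coding regions and sequenced, and reads were counted per gene symbol. Of 52459 symbols, 14085 passed a filter on low counts and were tested. The sources used here do not give the antibody's clone, dose and schedule, the age of the mice, the driver of the tumour alleles, the time of collection or the genes that the probes cover.

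PD-1, the product of Pdcd1, is an inhibitory receptor that T cells display after activation. Its ligands PD-L1 and PD-L2, the products of Cd274 and Pdcd1lg2, sit on tumour and myeloid cells and dampen T cell signalling, and a blocking antibody keeps receptor and ligand apart. Where blockade releases T cells in a tumour, the usual transcript readouts are T cell genes, the cytotoxic granule genes of killer cells and the genes that interferon gamma turns on. Engineered lung tumours of this kind arise from epithelium of the alveoli and tend to hold few T cells.

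The 4 libraries were of like depth and composition. Total counts were 12615865 and 15224108 in vehicle replicates 1 and 2, and 12998173 and 10318833 in anti-PD-1 replicates 1 and 2. Ribosomal RNA took 21.81% to 24.16% of counts and protein-coding genes 72.21% to 74.16%. The correlation of log2 CPM, which are counts scaled to the size of the library, was 0.972 between the vehicle libraries and 0.954 between the antibody libraries, while the 4 pairs across treatments lay between 0.958 and 0.966. The antibody libraries were thus no more alike than an antibody and a vehicle library. Replicate 2 of anti-PD-1 held 4550 reads of Xist and at most 1 of each of 4 Y-linked genes, so it came from a female, and the other 3 libraries came from males. Treatment and sex therefore overlap in part. Markers of the labelled tissue were abundant in all 4: the lung epithelial factor Nkx2-1 was at 2124, 1733, 1659 and 1560 CPM and the surfactant gene Sftpc at 2383, 1155, 1854 and 1597 CPM. From here on, 4 values in a row are CPM scaled by TMM factors in vehicle replicates 1 and 2 and then anti-PD-1 replicates 1 and 2.

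No gene passed the test between anti-PD-1 and vehicle. After Benjamini-Hochberg adjustment the quasi-likelihood test of edgeR called 0 of 14085 genes (0%), and the smallest adjusted p was 1. At an unadjusted p under 0.05 there were 278 genes (1.97%), 167 higher (1.19%) and 111 lower (0.788%) with the antibody. DESeq2 called 11 (0.0781%), of which 9 (0.0639%) were higher and 2 (0.0142%) lower, and limma voom called 0. Without a filter on low counts edgeR called 55, of which 9 were among the 11. By position alone, both antibody libraries lay above both vehicle libraries for 2029 genes (14.4%) and below both for 2247 (16%). Log2 fold changes were positive for 49.9% of genes. The values that follow are described on this background, and where a gene is called higher or lower that refers to its CPM in these 4 libraries.

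**Figure D1:**
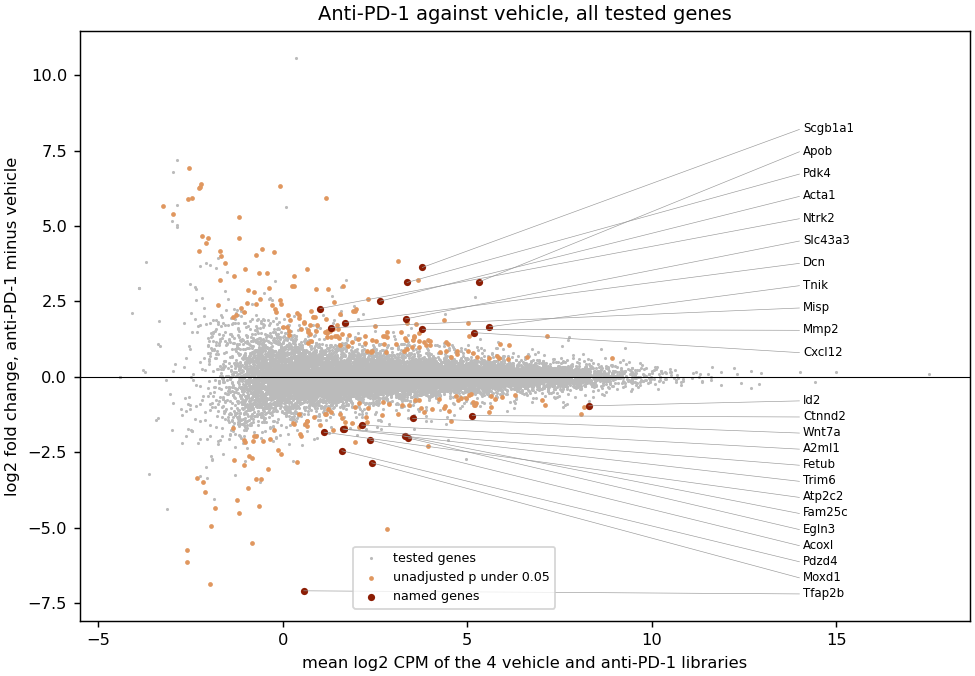
Log2 fold change of anti-PD-1 minus vehicle (y axis) against the mean log2 CPM of the 4 libraries (x axis) for the 14085 tested genes. Orange points are the 278 genes with an unadjusted p under 0.05, and dark points with names are the reported genes among those with the smallest p in each direction that are better expressed, with Tfap2b; no gene passed edgeR's test after adjustment.

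Among the genes with the smallest p on the higher side were genes of fuel and lipid handling. Pdk4 (chromosome 6, 5483351 to 5496309, GRCm38), a kinase that shuts off pyruvate dehydrogenase and so spares glucose, was at 3.59, 4.30, 56.5 and 12.6 CPM, a log2 fold change of 3.13 (SE 0.63). Both antibody libraries lay above both vehicle libraries although they differed from each other. Apob, the apolipoprotein of lipoprotein particles, was at 10.3, 17.3, 152 and 92.8 CPM, and the transporter Slc43a3 at 5.12, 5.34, 25.2 and 14.3 CPM. In all 3 the highest value was in anti-PD-1 replicate 1. Over the whole table replicate 1 exceeded replicate 2 in 7322 of 14085 genes, and among the 167 genes higher at an unadjusted p under 0.05 it did so in 116.

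The other genes with the smallest p on the higher side were of mixed kinds. Cxcl12 (chromosome 6, 117168535 to 117181367), a chemokine of fibroblasts and endothelium that draws and holds CXCR4-bearing leukocytes, was at 16.9, 27.4, 57.7 and 64.4 CPM, with a log2 fold change of 1.46 (SE 0.30). It was among the few leading genes in which both antibody libraries were close together. The kinase Tnik, which acts in WNT signalling, was at 31.2, 24.4, 62.8 and 113 CPM (1.66, SE 0.34), and Mmp2, a matrix metalloproteinase of fibroblasts, at 7.25, 8.72, 20.4 and 27.3 CPM (1.57, SE 0.35). The collagen-binding proteoglycan Dcn was at 1.99, 1.43, 4.68 and 7.23 CPM and the neurotrophin receptor Ntrk2 at 0.458, 1.43, 3.84 and 5.54 CPM. Replicate 2 was the higher antibody library in these genes. Skeletal muscle actin, Acta1, was at 1.76, 3.61, 19.3 and 11.46 CPM, and the club cell secretoglobin Scgb1a1 (chromosome 19, 9083636 to 9087958) at 5.35, 3.50, 87.3 and 21.2 CPM (3.62, SE 0.80). The actin-bundling gene Misp stood at 1.53, 1.20, 4.12 and 4.32 CPM. Among the genes that DESeq2 called higher were Tnik, Cxcl12, Pdk4, Acta1, Slc43a3, Apob, Scgb1a1 and the immunoglobulin gene Igkc.

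On the lower side, Moxd1 (chromosome 10, 24223517 to 24302790), which resembles dopamine beta-hydroxylase, was at 10.6, 18.8, 2.51 and 1.502 CPM, a log2 fold change of −2.85 (SE 0.51). Tfap2b, a transcription factor of neural crest and kidney, held 170 and 415 reads in the vehicle libraries and 0 and 3 in the antibody libraries, a ratio of 159.5 in favour of vehicle (95% counting interval 54.3 to 776). These were the only genes DESeq2 called lower. Id2 (chromosome 12, 25093799 to 25097140), an inhibitor of basic helix-loop-helix factors, was by far the most abundant of the leading genes, at 484, 393, 215 and 234 CPM (−0.96, SE 0.26). The WNT ligand Wnt7a was at 17.3, 19.7, 6.01 and 8.26 CPM and the delta-catenin Ctnnd2 at 47.8, 63.3, 27.1 and 18.3 CPM. These genes were picked for a small p in these same libraries, so a small spread within each side followed from the choice.

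The prolyl hydroxylase Egln3, which marks hypoxia-inducible factors for decay and is itself induced in hypoxia, was at 28.0, 15.5, 4.82 and 5.82 CPM (−2.03, SE 0.64). Acoxl, related to the acyl-CoA oxidases, was at 14.7, 8.38, 3.98 and 1.31 CPM. The ubiquitin ligase Trim6 was at 5.19, 5.91, 1.47 and 1.88 CPM and the protease inhibitor A2ml1 at 9.62, 6.20, 3.35 and 1.78 CPM. All 4 of these had non-overlapping sides, as the naming rule required. The cystatin-family gene Fetub, the calcium and manganese pump Atp2c2, the scaffold gene Pdzd4 and Fam25c completed the list of 12, with log2 fold changes between −2.45 and −1.73. Hmga2, a chromatin protein linked to dedifferentiated lung tumours, was outside the list and singled out after its values were seen, at 13.3, 4.36, 1.54 and 2.44 CPM.

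**Figure D2:**
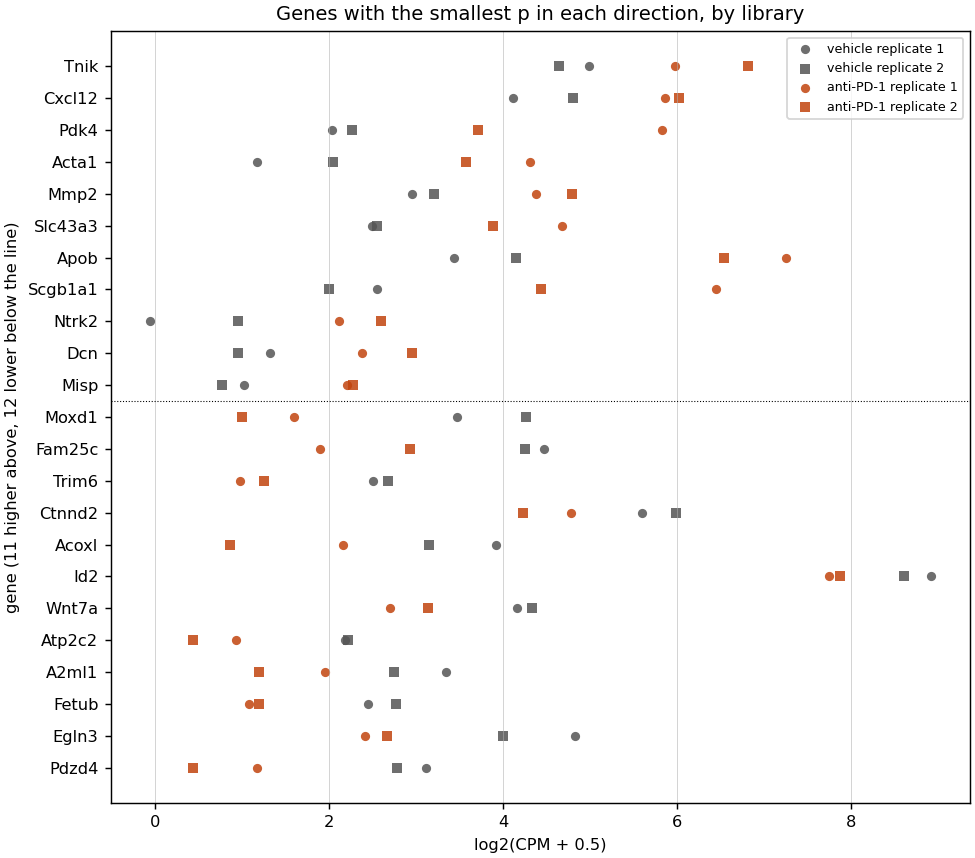
Log2(CPM + 0.5) of the reported genes with the smallest p in each direction (rows, 11 higher and 12 lower), with vehicle libraries in grey and anti-PD-1 libraries in orange, circles for replicate 1 and squares for replicate 2. The sides do not overlap because the genes were chosen that way; the distance between the antibody libraries is widest for Pdk4 and Scgb1a1 and small for Cxcl12, Misp and Id2.

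The antibody's own target was barely detected. Pdcd1 had 0 reads in both vehicle libraries and 4 and 1 reads in the antibody libraries. Against a floor of 3 reads over the vehicle group, its summed counts were 2.04-fold higher, with the antibody reads taken as exact. Its ligands showed no difference that these libraries could resolve: Cd274 was at 1.53, 1.61, 1.89 and 1.13 CPM, a log2 fold change of −0.05 (SE 0.64), and Pdcd1lg2 had 2 reads in vehicle and 4 with the antibody, a ratio of 2.44 (95% counting interval 0.350 to 27.0). Trp53, which is altered in the model, did not stand apart either, at 1.99, 2.75, 2.10 and 2.16 CPM (−0.16, SE 0.50).

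T cell transcripts were scarce on both sides, and single genes differed in direction. Of 28 genes of T cell identity and receptor signalling, 6 could be tested and 5 had positive fold changes, with a median of 0.33. Against the vehicle mean the list stood at 0.42 in anti-PD-1 replicate 1 and 0.09 in replicate 2, and its median was −0.10 without replicate 1 and 2.05 without vehicle replicate 2. The signalling kinase Zap70 had 0 reads in both vehicle libraries and 15 and 3 in the antibody libraries, 7.34-fold higher against the floor of 3 reads. Cd3e, a chain of the receptor complex, had 1, 10, 17 and 10 reads, and the co-receptor Cd4 had 2, 4, 10 and 4. Cd8a, which marks killer T cells, had 0, 2, 1 and 2 reads, and Lck, the kinase next to the receptor, 19, 30, 32 and 20. Other members held fewer reads with the antibody. The adhesion receptor gene Cd2 had 4, 18, 5 and 1 reads, and the co-stimulatory receptor gene Cd28 had 5, 5, 1 and 3. The receptor constant segment Trbc1 had 6, 1, 0 and 0, 1.91-fold higher in vehicle against the floor of 3 reads. By CPM, Cd8a and Cd2 overlapped between the sides. Lck lay above vehicle in both antibody libraries, at 1.45, 1.72, 2.24 and 1.88 CPM (0.37, SE 0.58). The 225 T cell receptor gene segments in the annotation summed to 0.764, 0.746, 0.699 and 0.657 CPM, a sum with no excess in the antibody libraries. In bulk tissue, fewer cells of a type and less RNA per cell cannot be told apart.

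Killer cell genes were at or near the floor. Of 19 cytotoxic and natural killer cell genes, 11 had no read in any of the 4 libraries, among them Gzma and Gzmb, which encode granzymes, the pore former Prf1, Nkg7 and the natural killer receptor Ncr1. Ifng, which encodes interferon gamma, was at 0 in all 4 as well. Eomes, a T-box factor of killer cells and the only gene of the list that could be tested, had 7 and 8 reads in vehicle and 2 and 3 with the antibody, with no overlap and an unadjusted p of 0.498. The whole list summed to 0.611 and 0.746 CPM in vehicle and 0.629 and 1.31 CPM with the antibody. At these depths 0 reads allow up to 3, so a change among such genes was not detectable.

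Among inhibitory and activating receptors, the higher values lay with the antibody. Tox, a nuclear factor of chronically stimulated T cells that other tissues also express, was at 9.39, 10.7, 24.2 and 22.1 CPM, a log2 fold change of 1.20 (SE 0.34). Its libraries were close together on each side and did not overlap. Ctla4, the other checkpoint receptor targeted in patients, had 0 and 3 reads in vehicle and 25 and 7 with the antibody, a ratio of 13.0 (95% counting interval 4.08 to 66.6). Foxp3, the factor of regulatory T cells, had 3 reads in vehicle and 10 with the antibody, 9 of them in replicate 1, a ratio of 4.08 (1.05 to 23.1). Btla had 2 and 9 reads, while Lag3 had 6 and 3 and Tigit 1 and 3. Of 14 such receptor genes 4 could be tested, all with positive fold changes and a median of 0.25.

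Ligands for T cell receptors on tumour and myeloid cells leaned the other way. Of 18 genes 13 could be tested, and 9 had negative and 4 positive fold changes, with a median of −0.19. In both antibody libraries 5 lay below vehicle, against 16% of all genes. Another 2 lay above, against 14.4%: Icosl (1.04, SE 0.64) and Vsir (0.52, SE 0.44). Tnfsf9, the ligand of the co-stimulatory receptor 4-1BB, was at 2.60, 4.42, 1.33 and 0.939 CPM (−1.61, SE 0.54). Cd276, or B7-H3, was at 29.2, 27.8, 21.9 and 23.6 CPM, and the poliovirus receptor Pvr, a ligand of TIGIT, at 16.4, 17.4, 14.4 and 12.7 CPM. Their sides did not overlap, and their differences were smaller than 1 SE.

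**Figure D3:**
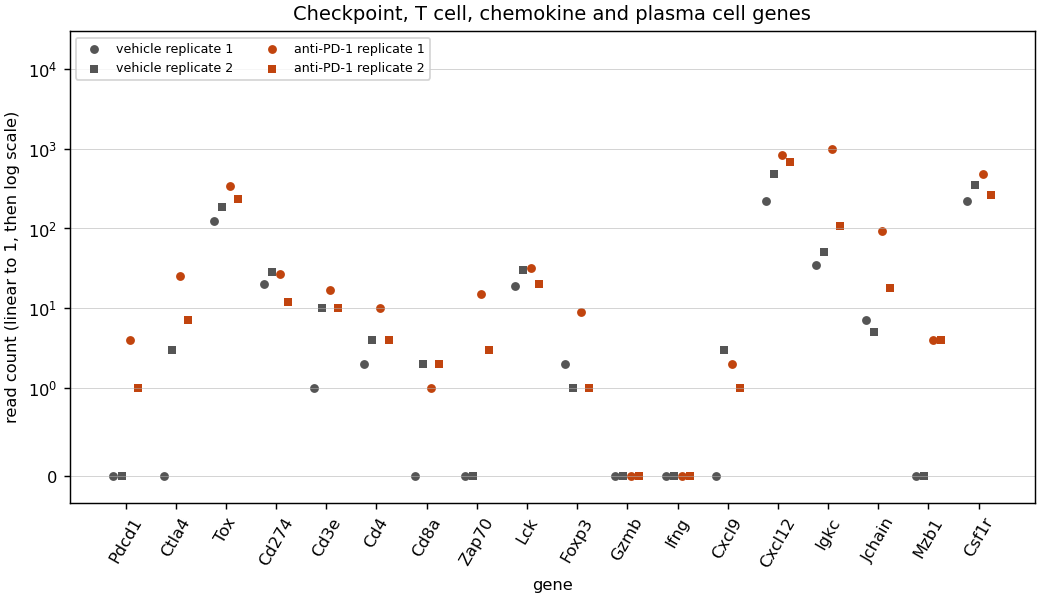
Read counts per library (y axis, linear up to 1 and on a log scale above) of checkpoint, T cell, chemokine, plasma cell and macrophage genes (x axis), with vehicle in grey and anti-PD-1 in orange. Gzmb and Ifng are at 0 in all 4 libraries, Zap70 and Pdcd1 are at 0 in both vehicle libraries, and Igkc spans 35 to 1005 reads.

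Antibody-secreting cell transcripts gave the widest immune difference, and most of it came from a single library. Igkc (chromosome 6, 70726435 to 70726966), the constant region of the kappa light chain, was at 2.67, 2.87, 70.2 and 9.95 CPM, a log2 fold change of 3.85 (SE 0.95). Jchain, which joins secreted IgA and IgM, was at 0.535, 0.287, 6.57 and 1.69 CPM (3.33, SE 1.0), and Ighm at 0.153, 2.64, 12.5 and 5.82 CPM. Both antibody libraries lay above both vehicle libraries in these 3 genes, with replicate 1 highest each time. The 268 immunoglobulin gene segments together held 170 and 353 reads in vehicle and 3908 and 648 with the antibody, or 13.0, 20.3, 273 and 60.8 CPM. Reads fell on 33 and 29 different segments in vehicle and on 98 and 43 with the antibody. Igha, the IgA heavy chain, led with 48, 112, 1160 and 138 reads, while Ighg2c had 1, 1, 262 and 0. The sum over segments was taken after values were seen, and reads of near-identical segments may be shared.

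Genes of B cells before secretion did not carry the same weight. Ms4a1, which encodes CD20, had 2 reads in vehicle and 8 with the antibody, and Cd79a had 1 and 6. Mzb1, a chaperone of plasma and marginal zone B cells, had 0 reads in vehicle and 4 in each antibody library, 3.26-fold higher against the floor of 3 reads. Of 17 B and plasma cell genes 5 could be tested, 4 with positive fold changes, and the median was 2.67. Both antibody libraries lay above vehicle for 3 of the 5, against 14.4% of all genes. The list stood at 2.97 in replicate 1 and 1.28 in replicate 2 against the vehicle mean, and its median was 1.84 without replicate 1 and 3.55 without replicate 2. In the libraries with JQ1, where the antibody was given to other mice, the segments summed to 41.8 and 9.68 CPM without it and 4.63 and 15.7 CPM with it.

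Macrophage genes split by library. Of 16 tested genes of tumour and interstitial macrophages 13 had positive fold changes, with a median of 0.48, but the list stood at 0.85 in anti-PD-1 replicate 1 and −0.05 in replicate 2, and at −0.11 without replicate 1. Csf1r, the receptor that macrophages need to survive, was at 16.7, 19.97, 34.0 and 25.0 CPM, and both antibody libraries were above vehicle. The complement genes C1qa, C1qb and C1qc were higher than vehicle in replicate 1 only, with C1qa at 3.44, 2.58, 5.94 and 2.82 CPM. Arg1, an arginase of suppressive macrophages, was at 2.75, 1.95, 0.349 and 0.657 CPM. Genes of alveolar macrophages were split, with 6 of 14 positive, 8 negative and a median of −0.13. In both antibody libraries 6 lay below vehicle, against 16% of all genes, and 2 above, Fabp4 (0.22) and Ear1 (0.17). Among the lower genes, the scavenger receptor Marco was at 1.37, 2.41, 0.699 and 0.188 CPM. The chitinase-like gene Chil3 was at 59.3, 83.6, 44.9 and 41.4 CPM.

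Interferon response genes were near vehicle. Of 20 tested interferon gamma response genes 16 had positive fold changes. Above vehicle in both antibody libraries were 6, against 14.4% of all genes, but the median was 0.19 and none had an unadjusted p under 0.05. Gbp2, an interferon-induced GTPase, was at 2.75, 2.24, 3.91 and 3.29 CPM and the factor Irf1 at 17.5, 14.6, 15 and 18.6 CPM. The chemokines Cxcl9 and Cxcl10, which interferon gamma induces to draw T cells, had 3 reads each side and 1 and 0 reads. Type I interferon genes had a median of −0.05, with 5 of 13 positive.

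MHC class I genes differed between the antibody libraries more than between treatments, and class II genes as a list did not. Of 20 MHC class I genes 15 had positive fold changes, with a median of 0.23, at 0.01 in replicate 1 and 0.38 in replicate 2. H2-K1, a classical class I gene, was at 576, 392, 474 and 1382 CPM and the non-classical H2-T23 at 12.5, 11.99, 14.4 and 89.2 CPM, so replicate 2 stood alone in both. Of 10 tested class II genes 7 had positive fold changes, with a median of 0.30, at 0.32 in replicate 1 and 0.21 in replicate 2. Leaving out any of the 4 libraries kept that median between 0.22 and 0.38. Among them H2-Eb1 followed the class I pattern, at 1.99, 1.26, 1.47 and 28.6 CPM. H2-Aa was at 209, 214, 309 and 326 CPM and the invariant chain Cd74 at 709, 464, 855 and 465 CPM. MHC genes vary between mouse strains, the labels give a mixed background, and the sources used here do not give genotypes at the locus. Its part in these values was not tested.

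Vessel genes were higher in both antibody libraries, but the vehicle libraries themselves were spread. Of 26 endothelial genes 23 had positive fold changes and 13 lay above vehicle in both antibody libraries, against 14.4% of all genes, with a median of 0.49. Against the vehicle mean the list stood at 0.47 and 0.55 in the antibody libraries and at −0.32 and 0.32 in the vehicle libraries, which are equal and opposite by construction. Without vehicle replicate 1 the median was 0.24 and without vehicle replicate 2 it was 0.83. Ramp2, a partner of the adrenomedullin receptor that keeps vessels tight, was at 8.63, 11.53, 22.0 and 20.4 CPM, a log2 fold change of 1.07 (SE 0.33). Tmem100, a target of BMP signalling in arteries, was at 0.382, 0.689, 1.68 and 1.78 CPM (1.65, SE 0.64), and Kdr, the main VEGF receptor, at 13.4, 14.8, 18.7 and 22.6 CPM. Pecam1, which defines endothelium, was at 5.12, 10.2, 15.5 and 8.45 CPM and did not separate the sides. The 8 lymphatic genes had a median of 0.49, which was 0.19 without vehicle replicate 1 and 1.32 without vehicle replicate 2. Among them Reln was at 0.840, 7.17, 9.99 and 16.3 CPM, while the defining markers Prox1 and Lyve1 were at −0.09 and 0.10 on the log2 fold scale.

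Fibroblast and matrix genes were higher mainly in anti-PD-1 replicate 1. Of 24 tested genes 22 had positive fold changes and 8 lay above vehicle in both antibody libraries, against 14.4% of all genes. The median was 0.44, at 0.48 in replicate 1 and 0.23 in replicate 2. Of the defining markers, Col1a1 and Pdgfra overlapped between the sides. Col1a1 was at 1088, 821, 1257 and 765 CPM (0.08, SE 0.29), and Pdgfra had 75, 258, 172 and 191 reads. Col3a1, a fibrillar collagen, was at 37.6, 45.6, 116 and 60.8 CPM (1.09, SE 0.38), and Fbln1, a glycoprotein of elastic fibres, at 1.91, 1.89, 13.4 and 3.76 CPM (2.18, SE 0.70). Col6a2 was highest in replicate 2, at 34.8, 24.3, 29.6 and 87.8 CPM, so the members did not share 1 order of libraries. Cxcl14, a chemokine of epithelium and stroma, was at 17.6, 20.8, 37.6 and 29.7 CPM, beside the Cxcl12 values given above. Of 9 tested chemokines 6 had positive fold changes. Cxcl15, or lungkine, which lung epithelium secretes, went the other way at 328, 236, 104 and 175 CPM.

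Airway and muscle transcripts marked anti-PD-1 replicate 1. Of 15 tested airway genes 12 had positive fold changes and 8 lay above vehicle in both antibody libraries, against 14.4% of all genes. The median was 1.08, at 1.23 in replicate 1 and 0.41 in replicate 2. Beside Scgb1a1, the airway factor Sox2 had 0, 3, 63 and 8 reads, a ratio of 28.9 (95% counting interval 9.51 to 144), and Foxj1, the master factor of ciliated cells, had 4, 1, 75 and 7. Cyp2a5, a monooxygenase of the airway, had 48 reads in replicate 1 and 0 in the other 3 libraries. Bpifa1, a secreted product of upper airway epithelium, went the other way with 88, 29, 2 and 0 reads. The list summed to 62.8, 31.0, 164 and 78.7 CPM.

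Of 25 genes of striated muscle 9 could be tested, 7 with positive fold changes, and their median of 1.12 came from replicate 1, at 1.44 against −0.29 in replicate 2, and was −0.45 without replicate 1. Actn2, an actinin of the Z disc, had 53 reads in replicate 1 and 0 elsewhere, and the cardiac actin Actc1 was at 0, 0.861, 21.4 and 0.0939 CPM. Ttn, which encodes the spring protein titin, had a log2 fold change of 1.36 (SE 0.60), with both antibody libraries above vehicle. Heart genes were present unevenly. The beta myosin heavy chain Myh7 was abundant and overlapped between the sides, at 4817, 3458, 3958 and 2924 CPM, and the alpha chain Myh6 was at 524, 380, 508 and 307 CPM. The troponin gene Tnnt2 had 53, 23, 127 and 14 reads, whereas Myl2, Nppa and Sln had 0 in all 4 libraries. How far airway or muscle tissue in a nodule bears on the other differences was not tested.

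Genes that carry the output of the circadian clock leaned higher with the antibody. The clock runs on a loop in which CLOCK and BMAL1 (Arntl) bind E-boxes and switch on the Per and Cry repressors and output factors such as Tef, Hlf and Ciart, which then pass timing on to metabolism. All 14 clock output genes had positive fold changes. In both antibody libraries 9 lay above vehicle, against 14.4% of all genes, and the rest overlapped between the sides. The median was 0.57, at 0.48 and 0.39 in the 2 antibody libraries. Leaving out any of the 4 libraries kept the median between 0.45 and 0.72. Hlf had 3, 3, 40 and 18 reads, a log2 fold change of 3.43 (SE 0.84), and Tef was at 35.8, 41.3, 55.4 and 63.9 CPM (0.63, SE 0.28). The cell cycle kinase Wee1, a clock-driven gene, was at 8.48, 11, 13.4 and 22.1 CPM. None passed the test.

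The core loop was more mixed. Of 16 tested core genes 11 had positive fold changes, with a median of 0.25. Above vehicle in both antibody libraries were 7, against 14.4% of all genes, with none below. Per1 was at 63.8, 54.6, 86.7 and 70.4 CPM, Per2 at 14.6, 24.7, 27.9 and 25.3 CPM and Per3 at 14.5, 15.9, 19.7 and 21.2 CPM. The repressor gene Cry1 was at 4.20, 4.93, 5.17 and 10.8 CPM, and Arntl, Clock, Cry2 and Nr1d1 overlapped between the sides. The sources used here do not give the time of day at which nodules were taken, and its part in these values was not tested.

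The canonical E-box, CACGTG, reads the same on both strands and was searched in the 250 bases before the transcript starts that RefSeq gives on GRCm38.p6. It occurred in 6.02% of all 32851 promoters, in 8.04% of the promoters of tested genes and in 7 of 35 promoters (20%) of the clock genes, of which 13 of 17 core and 11 of 14 output genes had an entry. These were 2 of 21 promoters of core genes (9.52%) and 5 of 14 promoters of output genes (35.7%). Those with a match were Bhlhe41, Ciart, Cry1, Klf15, Per1 and Tef. For the 4 of them whose antibody libraries both lay above vehicle, the stretch around the match nearest to the first listed start is shown 5′ to 3′ on the gene's strand, with each E-box in capitals, to set the sequence beside the values: Per1 at chr11:69098753-69098818 (+), Cry1 at chr10:85185079-85185144 (−), Tef at chr15:81802516-81802581 (+) and Ciart at chr3:95882237-95882302 (−). A match describes letters in the window and is neither an occupied site nor a cause.
Per1: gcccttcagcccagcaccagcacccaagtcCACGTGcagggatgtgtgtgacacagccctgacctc
Cry1: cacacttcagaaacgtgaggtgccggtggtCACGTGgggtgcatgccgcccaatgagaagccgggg
Tef: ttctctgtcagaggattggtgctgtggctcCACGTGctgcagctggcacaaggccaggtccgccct
Ciart: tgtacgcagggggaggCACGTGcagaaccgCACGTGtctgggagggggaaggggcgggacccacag

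Genes that the glucocorticoid receptor switches on also leaned higher. Of 21 genes 19 had positive fold changes and 12 lay above vehicle in both antibody libraries, against 14.4% of all genes. The median was 0.56, at 0.62 in replicate 1 and 0.25 in replicate 2, and 0.25 without replicate 1. Beside Pdk4, which belongs to this list too, Sult1a1, a sulfotransferase, was at 2.06, 1.03, 5.10 and 5.07 CPM (1.73, SE 0.66). The zinc finger gene Zbtb16 was at 29.2, 11.9, 113 and 28.5 CPM, with replicate 2 just under vehicle replicate 1. Fkbp5, a chaperone that feeds back on the receptor, was at 11.8, 13.5, 16 and 23 CPM, and Tsc22d3, or GILZ, at 14.8, 15.7, 36.1 and 16.9 CPM. Several of these genes belong to the clock lists as well, so the counts are not separate.

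**Figure D4:**
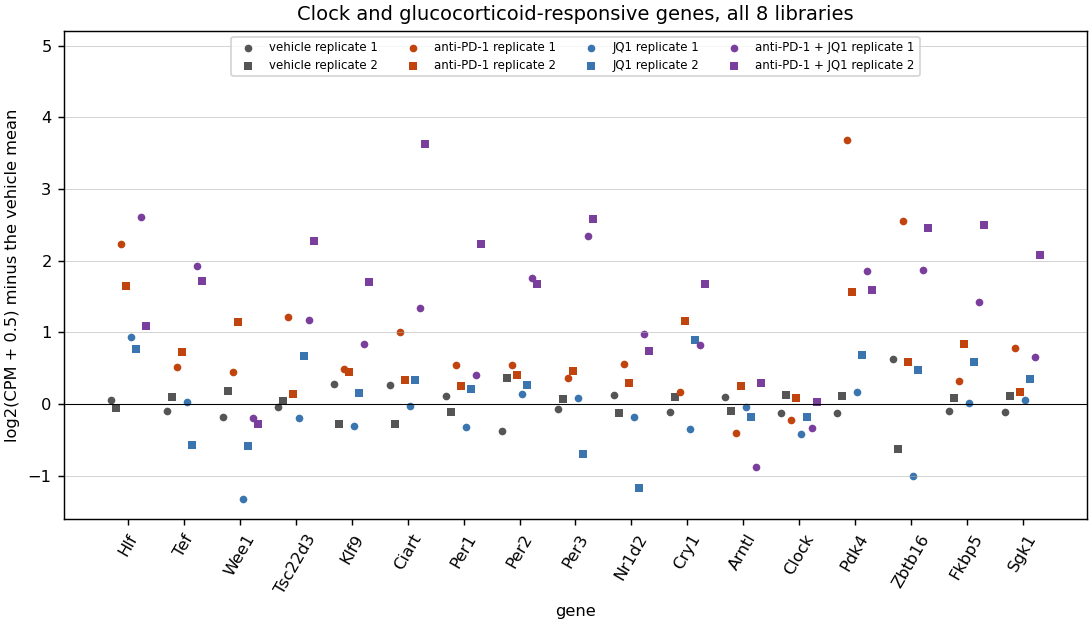
Log2(CPM + 0.5) minus the mean of the vehicle libraries (y axis) for clock and glucocorticoid-responsive genes (x axis) in all 8 libraries, coloured by treatment, with circles for replicate 1 and squares for replicate 2. The anti-PD-1 libraries lie above both vehicle libraries for Hlf, Tef, Per1, Per2 and Per3 but not for Arntl or Clock, and the libraries with JQ1 and antibody lie above those with JQ1 alone for most genes.

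Genes of fat burning were slightly higher and those of sterol synthesis lower. Of 19 tested genes of fatty acid oxidation and fasting 15 had positive fold changes, with a median of 0.30. Both antibody libraries lay above vehicle for 10 of them, against 14.4% of all genes, and below for 2, against 16%. Beside Pdk4, given above, Hadha, a subunit of the mitochondrial trifunctional protein, was at 44.8, 50.1, 57.5 and 59.8 CPM, and Cpt1a, the gate for fatty acids into mitochondria, at 12.1, 11.1, 18.2 and 12.4 CPM. Of 10 tested genes of the mitochondrial genome 8 lay above vehicle in both antibody libraries, against 14.4% of all genes, with a median of 0.38. The share of all counts from that genome was 2.85%, 2.55%, 2.86% and 3.07%.

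Cholesterol synthesis was the list with the lowest median among those with 20 or more tested genes. Of its 23 tested genes 20 had negative fold changes and 11 lay below vehicle in both antibody libraries, against 16% of all genes, with none above and a median of −0.35, at −0.28 and −0.62 in the antibody libraries. Mvk, the mevalonate kinase, was at 1.15, 2.24, 0.768 and 0.751 CPM, and Fdps, which makes farnesyl diphosphate, at 16.3, 16.9, 13.0 and 10.6 CPM. No member had an unadjusted p under 0.05, and the replicates that were left out in turn kept the median between −0.64 and −0.32. Of 29 glycolysis and hypoxia genes 19 had negative fold changes, with a median of −0.15. Against the vehicle mean that list stood at −0.29 in replicate 1 and −0.04 in replicate 2, the latter within the vehicle libraries, and its median was −0.03 without vehicle replicate 1 and −0.05 without anti-PD-1 replicate 1. Slc2a1, the glucose transporter GLUT1, was at 40.2, 31.2, 17.1 and 24.4 CPM (−0.78, SE 0.35), beside the hypoxia-induced Egln3 given above. Among 20 NRF2 and antioxidant genes 14 had negative fold changes, with a median of −0.23, and Pgd of the pentose phosphate pathway was at 42.8, 38.8, 24.4 and 29.0 CPM (−0.61, SE 0.26).

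Output genes of ERK signalling, a growth factor pathway, leaned lower. Of 19 tested genes 15 had negative fold changes, and the median was −0.16, or −0.43 without anti-PD-1 replicate 1. Below vehicle in both antibody libraries were 6, against 16% of all genes, with none above. The phosphatase Dusp4 was at 17.5, 14, 8.52 and 10.05 CPM (−0.76, SE 0.32), the AP-1 subunit Fosl1 had 9, 11, 4 and 1 reads (−1.69, SE 0.76), and the cyclin Ccnd1 was at 109, 107, 38.9 and 90.9 CPM. Among 21 tested p53 target genes 17 had positive fold changes, with a median of 0.21, and Sesn1, a stress sensor that restrains mTORC1, was at 5.50, 5.97, 13.6 and 11 CPM (1.10, SE 0.48).

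Proliferation differed between the antibody libraries, not between treatments. Mitosis genes had a median of 0.08 in the comparison, but against the vehicle mean they stood at 0.59 in anti-PD-1 replicate 1 and −0.64 in replicate 2. The proliferation marker Mki67 was at 13.4, 16.5, 22.1 and 9.39 CPM and the topoisomerase Top2a at 39.3, 44.4, 56.7 and 29.1 CPM, with the vehicle libraries between the antibody libraries both times. Of 19 tested replication-dependent histone genes 16 had negative fold changes, with a median of −0.35, and as near-identical copies their single counts are uncertain. Of 16 alveolar type 2 genes 13 had negative fold changes, but the median was −0.16. Both antibody libraries lay below vehicle for 3 of the 16, near the 16% of all genes. The list's vehicle libraries lay 0.24 above and below their mean. Of 14 alveolar type 1 genes 11 had negative fold changes, with a median of −0.21. Below vehicle in both antibody libraries were 5, against 16% of all genes, with none above. The type 1 marker Ager was at 190, 212, 128 and 215 CPM and overlapped between the sides.

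Several other list medians moved with a single library. With the vehicle and anti-PD-1 libraries left out in turn, the median lay between 0.11 and 1.30 for the receptors of T cells, −0.31 and −0.12 for their ligands, 0.10 and 0.40 for interferon gamma response and −0.004 and 0.45 for MHC class I genes. It lay between 0.20 and 0.67 for fibroblast genes, 0.50 and 1.69 for airway genes, 0.15 and 0.27 for the core clock, and 0.24 and 0.55 for the mitochondrial genome. For alveolar macrophage genes it lay between −0.36 and −0.02, for NRF2 genes between −0.44 and −0.09, for p53 targets between 0.18 and 0.33, for histone genes between −0.47 and −0.11, for mitosis genes between −1.01 and 0.59 and for alveolar type 2 genes between −0.40 and 0.03. The sign therefore depended on 1 library for the MHC class I, mitosis and alveolar type 2 lists among these.

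**Figure D5:**
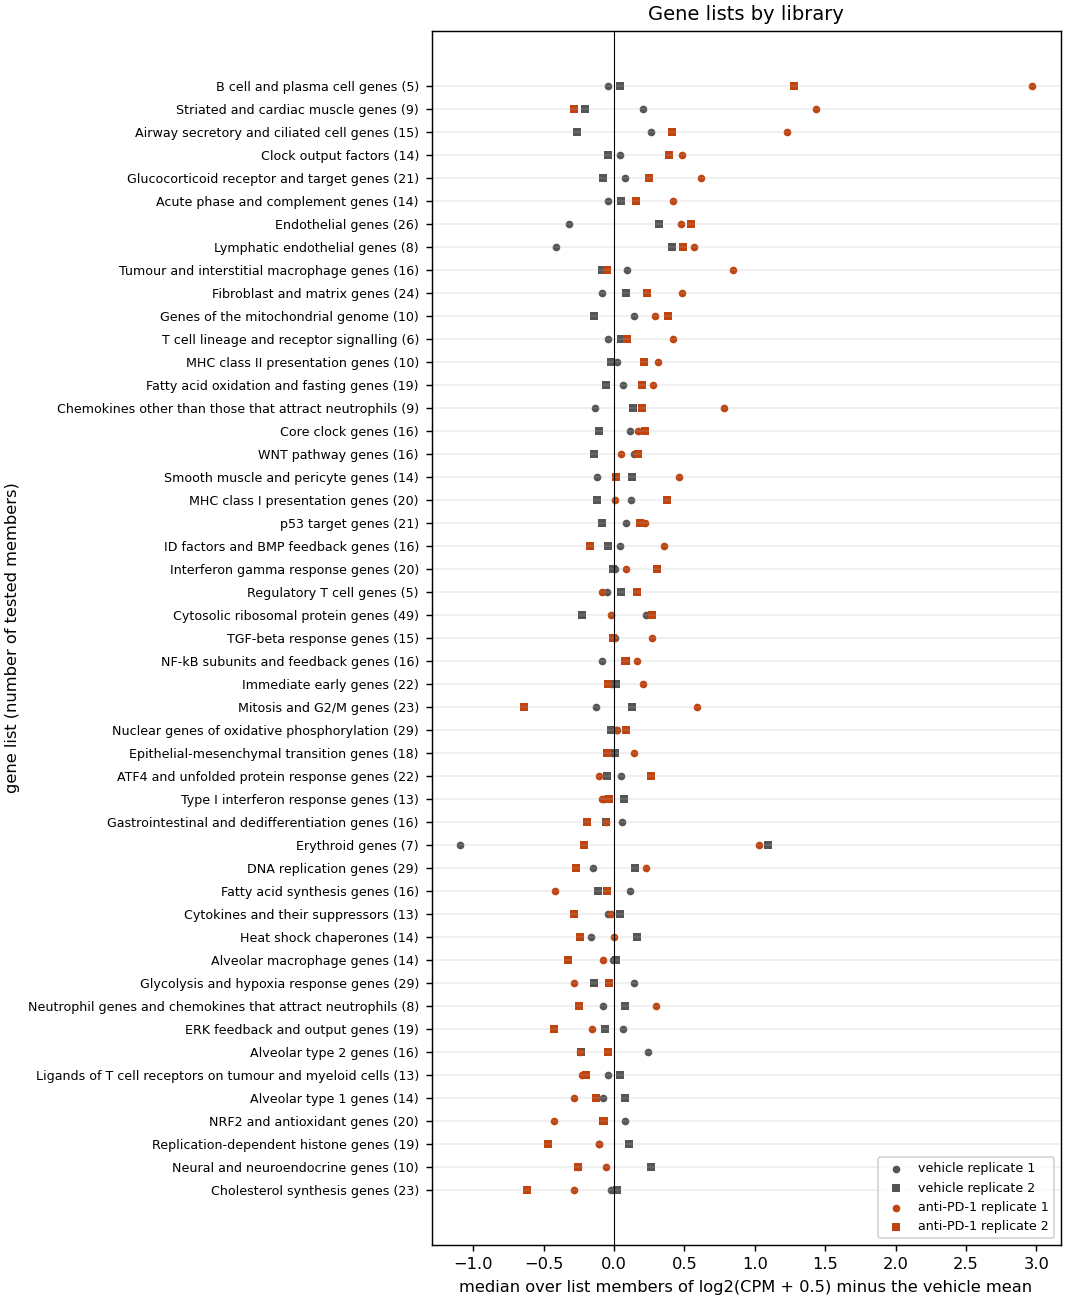
Median over the tested members of each gene list (rows, number of tested members in brackets) of log2(CPM + 0.5) minus the vehicle mean (x axis), with vehicle libraries in grey and anti-PD-1 libraries in orange. The antibody libraries lie together for clock output, endothelial and mitochondrial genome genes and far apart for B and plasma cell, striated muscle and mitosis genes.

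The antibody was also given to mice that received JQ1, and that contrast shares no library with the one above. The question whether the antibody difference depended on JQ1 was tested as an interaction over all 8 libraries. After Benjamini-Hochberg adjustment edgeR called 0 of 14085 genes (0%) by its quasi-likelihood test, with a smallest adjusted p of 0.745 and 881 genes (6.25%) at an unadjusted p under 0.05, and DESeq2 called 22 (0.156%), among them Igkc, Trim6, Per3 and Klf15. The libraries with JQ1 are shallower, and ribosomal RNA took 27.66% and 35% of counts with JQ1 alone and 45.95% and 52.49% with the combination, so the composition moved with the antibody there and its part was not tested.

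Of the 167 genes higher with the antibody alone at an unadjusted p under 0.05, 103 (61.68%) were also higher with the antibody on JQ1, against 49.63% of all genes, and of the 111 lower genes 41 (36.94%) were higher. Id2 kept its direction: it was at 238 and 265 CPM with JQ1 and 67.3 and 49.4 CPM with the combination, a log2 fold change of −2.12 (SE 0.27) that passed there (Benjamini-Hochberg adjusted p = 0.0477, quasi-likelihood test of edgeR). In that contrast edgeR called 3 genes (0.0213%) and DESeq2 called 409 (2.9%). Per3, which did not pass with the antibody alone, rose on JQ1, from 16.2 and 9.24 CPM to 79.5 and 93.9 CPM (2.78, Benjamini-Hochberg adjusted p = 0.0432, quasi-likelihood test of edgeR). All 14 clock output genes had positive fold changes in this second set of mice, with a median of 1.37, as did all 21 glucocorticoid-responsive genes, with a median of 1.56. Both lists were chosen with these results known. Ctnnd2, Wnt7a, Acoxl and Moxd1 were lower in both settings, and Tox was higher in both, at 11.4 and 6.97 CPM with JQ1 and 21.0 and 27.9 CPM with the combination.

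Other leading genes did not repeat. Igkc was at 7.45 and 3.31 CPM against 0.421 and 2.97 CPM, an interaction of −5.25 (SE 1.38). Trim6, lower with the antibody alone, was at 5.66 and 6.10 CPM with JQ1 and 15.6 and 11.4 CPM with the combination, an interaction of 2.91 (SE 0.55). Cxcl12 stood at 28.2 and 31.6 CPM against 34.9 and 32.5 CPM and Ramp2 at 13.5 and 13.2 CPM against 7.58 and 11 CPM. Ramp2 differed in this from the endothelial list, which kept its direction on JQ1, with 21 of 26 genes positive and a median of 0.37. The cholesterol genes had a median of 0.37 in this second setting, opposite in sign to the antibody alone, and fibroblast genes one of −0.02.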

How the data were processed

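RNA of frozen lung tumour nodules was measured in 8 libraries, 4 of which enter the comparison. Per the labels' protocols, libraries were made with the TruSeq RNA Access kit from 50 ng of DNase-treated RNA. The tools were bcl2fastq, STAR, featureCounts and DESeq2, with mm10 and GRCm38 as builds, per the submitters' processing notes. The sources used here do not give their versions, the annotation, strand use or the handling of shared reads. The authors deposited raw read counts per gene symbol, and a normalized signal that equals those counts divided by 1 factor per library. Multiplied back, 99.9962% to 100% of signal values were whole within 0.05 reads.

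Groups come from the treatment label, and replicates were numbered in accession order. The labels do not say that libraries of a group are separate animals. By their sex-linked reads, libraries of a group differ in sex for anti-PD-1, JQ1 and the combination, while both vehicle libraries are male. A p-value here sets a difference against the spread among these samples, which may be technical in part. The chi-square per degree of freedom between any 2 libraries was at least 19.5, so none was a copy.

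Deposited counts were tested with edgeR 4.0.16 in R 4.3.3 (filterByExpr, TMM, robust glmQLFit, glmQLFTest), with 1 fit of all 8 libraries, a mean per group and 4 residual degrees of freedom. P-values were adjusted by Benjamini-Hochberg over 14085 genes, with calls at 0.05. The biological coefficient of variation was 0.332. Log2 fold changes used a prior count of 0.125 and are given with their standard error (SE). List values in a single library are medians of log2(CPM + 0.5) less the vehicle mean. Ratios of summed counts have exact 95% intervals, which cover counting error only, or a floor of 3 reads in place of 0. With a floor, the reads on the other side were taken without their counting error. Positions are from GENCODE vM21, which held 13813 of the tested symbols. The code was tested on simulated data.

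Members, the 56 gene lists and the naming rule were chosen with earlier results of these data known. The rule named, for each direction, the 12 genes with the smallest p whose sides did not overlap and whose log2 CPM averaged 1 or more. Predicted and sex-linked marker genes and receptor segments were passed over. It added genes called by DESeq2 1.42.0, a fixed set around the antibody's target and up to 4 members of each list with its defining markers. Some genes that the rule named are not reported here. Alternatives were other scaling (RLE, upper-quartile), no low-count filter or one at a mean count of 50, DESeq2, limma 3.58.1 voom, a fit of the 4 libraries alone, a sex term, counts without ribosomal RNA genes, the recovered reads, and each library left out.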

Additional observations from a re-analysis of the deposited data

How the results depend on the processing

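The count of genes called between anti-PD-1 and vehicle stayed at 0 with RLE or upper-quartile factors, a mean count of at least 50, limma voom, a sex term, ribosomal RNA genes removed, the recovered reads and only the 4 libraries in the fit, where 483 genes had an unadjusted p under 0.05. It was 11 with DESeq2 and 55 with no filter on low counts, and between 0 and 1 with a library left out, the 1 call being a predicted gene without vehicle replicate 1. The interaction count was 0 under the same settings, 22 with DESeq2, 138 with no filter, and between 0 and 1 with a library left out, the 1 call arising without JQ1 replicate 1. It could not be computed with only the 4 libraries. Of 34 genes with a printed fold change, 30 kept their sign under each alternative in which they could be tested, which was 23 genes at a mean count of at least 50 and 33 in the fit of 4 libraries. Prox1 was at 0.18 with a sex term. With libraries left out in turn, Cd274 lay between −0.47 and 0.27, Trp53 between −0.37 and 0.10, Prox1 between −0.89 and 0.39, and Lyve1 between −0.32 and 0.72. Of 53 list medians 26 never changed sign, and none did with other scaling factors, DESeq2, the recovered reads or without ribosomal RNA. A sex term turned 4, no filter 3, limma voom and a mean count of at least 50 turned 2 each, and the fit of 4 libraries 1. Leaving out anti-PD-1 replicate 1 or 2 or vehicle replicate 2 turned 9 each, vehicle replicate 1 turned 5, and a library with JQ1 at most 2. The cause was not tested. No paired analysis was possible because the labels carry no replicate numbers. With 2 libraries a side, 1 female library and an unstated probe panel, small differences and genes at a few reads could not be resolved.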

Other observations

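Over 22 genes of the ATF4 and unfolded protein response the median log2 fold change was 0.04 with 12 positive, over 29 nuclear genes of oxidative phosphorylation it was 0.06 with 17 positive, and over 14 heat shock chaperones −0.13 with 9 negative. Genes of acute phase and complement were higher, with 10 of 14 tested members positive and a median of 0.52 that lay between 0.15 and 1.07 with vehicle and anti-PD-1 libraries left out in turn, and with the complement component C4b at 7.87, 14.2, 52.1 and 30.4 CPM. No gene of these 4 groups passed edgeR's test.

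Erythroid genes differed most within the vehicle group: the beta globin Hbb-bs was at 2.37 and 43.6 CPM in vehicle replicates 1 and 2 and at 32.2 and 11.8 CPM in anti-PD-1 replicates 1 and 2. Msln, which marks mesothelium and some tumours, was at 8.55 and 16.7 CPM in vehicle and 0.629 and 10.2 CPM with the antibody, so 1 antibody library was at vehicle level.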
